A study of Rattus norvegicus with 18 samples.

Results

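Small leucine-rich and large matrix proteoglycans are secreted proteins, many with sulfated sugar chains, that organize the extracellular matrix around fibroblasts. The genes described here are 10 listed members of these families, listed by family membership with no cut on their values, of which 8 were in the table of 13188 genes: Dcn (decorin), Bgn (biglycan), Aspn (asporin), Lum (lumican), Fmod (fibromodulin), Prelp, Vcan (versican) and Acan (aggrecan). Ogn and Hspg2 were not analysed here. All 18 libraries were poly-A RNA-seq of HO15.19 cells, a Rat1 rat fibroblast line without a functional Myc gene (myc-/-), grown in 10% serum. MYC-expressing cells were the same line with human MYC stably expressed from a retroviral vector, so its promoter is not that of the Myc gene, and the study's methods describe the cells without MYC as carrying the empty vector. Transfected cells received 40 nM of a control siRNA (siCtrl) or of siAHR-2 or siAHR-5, siRNAs against the aryl hydrocarbon receptor AHR, and were harvested after 48 h.

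The libraries formed 6 groups of 3 and had been put on different scales in a smaller set of 6 libraries and a larger set of 12, so values were compared only within a set. The smaller set held myc-/- siCtrl cells and untransfected myc-/- + MYC cells. The larger set held untransfected myc-/- cells and myc-/- + MYC cells with siCtrl, siAHR-2 or siAHR-5. In both sets MYC and the transfection label changed together, and their effects cannot be told apart. The sets do not follow the transfection labels, and the table names the columns of the myc-/- siCtrl libraries only as controls, so an exchange of the labels of both myc-/- groups could not be checked here. All results come from a single parental line, and nothing in the labels says that the 3 libraries of a group came from separate cultures, so p-values measure the spread between these libraries only.

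The proteoglycans of this group fall into families by their core proteins. Decorin, biglycan and asporin are class I small leucine-rich proteoglycans, and decorin and biglycan carry chondroitin or dermatan sulfate chains, while asporin has an aspartate-rich stretch instead. Lumican, fibromodulin and PRELP are class II members; lumican and fibromodulin can carry keratan sulfate and bind collagen fibrils. Versican and aggrecan are large chondroitin sulfate proteoglycans that bind hyaluronan and are held to it by link proteins. Several small members also bind TGF-β, and in fibroblasts they are known for setting collagen fibril thickness.

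The groups were first checked against their labels. Ahr lay at 13.22 to 13.34 on the deposited log2 scale in myc-/- + MYC siCtrl libraries, at 11.97 to 12.03 with siAHR-2 and at 11.76 to 11.95 with siAHR-5, so both siRNA groups lay below their control. The rat Myc gene, disrupted in all groups, had a log2 difference of -1.26 (smaller set) and -2.68 (larger set) between cells with and without human MYC. Reads were aligned to the rat genome, so human MYC was not measured on its own and the MYC label was not checked. All 10 fibroblast markers were in the table, with Vim at 18.32 to 19.70, but Col1a2 was low in every library (3.64 to 4.13), and so was Fap (4.64 to 5.38). The summed level of the 10 was 20.82 to 20.83 in myc-/- siCtrl, 19.90 to 19.99 in myc-/- + MYC, 21.95 to 22.18 in myc-/- and 20.23 to 20.25 in myc-/- + MYC siCtrl cells. Of these, 4 fell and 1, Col3a1, rose with MYC in the smaller set, and 5 fell and 0 rose in the larger set, by the cutoffs used for the members. The summed level of 6 smooth muscle and myofibroblast markers, which include Acta2 and Tagln, lay at 14.73 to 14.74 in myc-/- siCtrl cells and 13.00 to 13.17 in myc-/- + MYC cells. In the larger set it lay at 17.93 to 18.09 in myc-/- cells and 13.61 to 13.66 in myc-/- + MYC siCtrl cells. With MYC 5 and 6 of these 6 markers fell, so they moved with the proteoglycans reported next, and their part in those results was not tested. Markers of other cell types were not uniformly low. Sox9 (0.00033 to 0.20), Epcam (1.22 to 2.42) and Ptprc (2.84 to 4.65) were, while Scx lay at 9.96 to 12.70, Cd14 at 9.91 to 11.44, Krt8 at 6.02 to 9.05, Col11a2 at 7.10 to 8.93 and Comp at 5.29 to 8.20. The endothelial markers (5 of 5 measured) summed to 9.97 to 10.03 in myc-/- siCtrl and 9.06 to 9.20 in myc-/- + MYC cells, and to 10.61 to 10.80 in myc-/- and 9.75 to 9.84 in myc-/- + MYC siCtrl cells. The leukocyte markers (5 of 5) summed to 11.43 to 11.59 and 10.61 to 10.72, and to 10.91 to 11.00 and 10.22 to 10.46, in the same order. In these lists 1 endothelial marker (Vwf) and 1 leukocyte marker (Cd14) fell in each set, while Tek, an endothelial marker, rose in the smaller set. The chondrocyte markers (6 of 8 measured) summed to 8.30 in myc-/- siCtrl, 9.46 to 9.50 in myc-/- + MYC, 8.70 to 8.84 in myc-/- and 9.25 to 9.35 in myc-/- + MYC siCtrl cells. In the same order the tenocyte markers (3 of 4) summed to 10.06 to 10.18, 11.28 to 11.48, 11.38 to 11.62 and 12.14 to 12.21, the epithelial markers (4 of 5) to 7.68 to 7.70, 8.22 to 8.30, 7.855 to 8.001 and 8.81 to 9.14, and the adipocyte markers (4 of 5) to 7.56 to 7.72, 7.37 to 7.44, 5.53 to 5.57 and 5.51 to 5.60. Within these lists Scx rose and Tnmd, another tenocyte marker, fell in both sets. Among chondrocyte markers Comp rose in both sets and Col11a2 in the smaller set. The epithelial marker Krt8 rose in both sets and Cldn4 fell in the smaller set, where among adipocyte markers Fabp4 rose and Adipoq fell. The part of these markers in the results was not tested.

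With MYC, most of the expressed matrix proteoglycans were lower. In the smaller set, 5 of the 8 genes fell (Bgn, Fmod, Lum, Prelp and Vcan) and 0 rose. In the larger set, 6 of the 8 fell, the same 5 and Dcn, and 0 rose. A gene was counted as changed when its log2 fold change (log2FC) was at least 0.585 in size, which is 1.5-fold, and its limma p-value, adjusted over all 13188 genes, was at most 0.01. By that rule 14.3% of all genes fell and 12.5% rose in the smaller set, and 14.7% fell and 10.8% rose in the larger set. The median log2FC of the 8 members was -0.83 in the smaller set and -1.05 in the larger set, against -0.0038 and -0.00014 for all genes. The values of Vcan, Bgn and Fmod did not overlap between cells with and without MYC in either set, nor did those of Lum and Prelp. Counting genes whose MYC-expressing libraries all lay below the myc-/- libraries gave the same 5 members in the smaller set and the same 6 in the larger set, where 40.9% and 36.7% of all genes did so. In bulk RNA, fewer cells expressing a gene and less RNA per cell cannot be told apart.

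**Figure D1:**
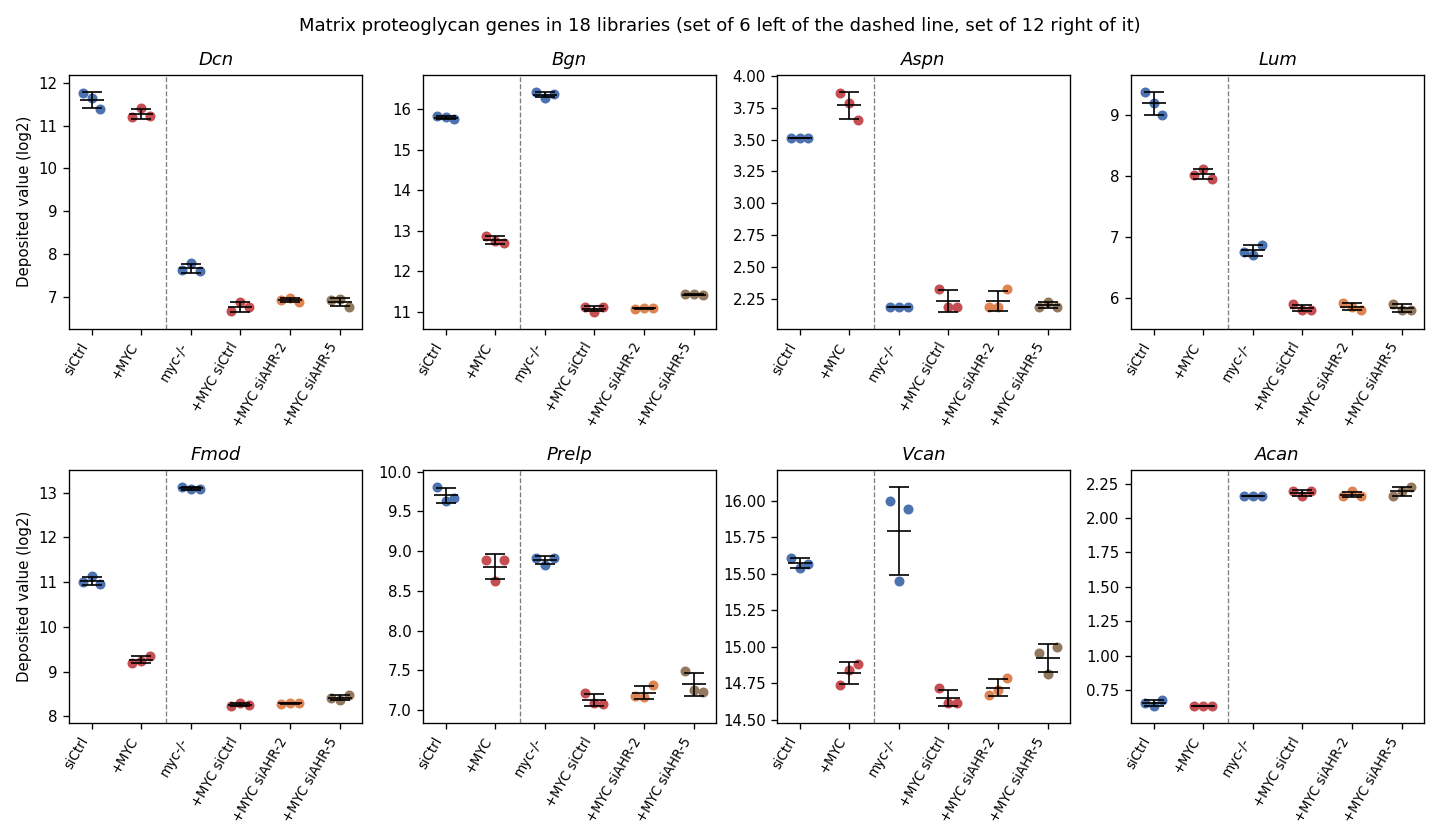
Deposited log2 value of each proteoglycan gene in each of the 18 libraries, as 1 point per library with the mean and SD (n = 3) of each group in black; the dashed line separates the 2 sets, whose scales differ, and each panel has its own axis. Bgn and Fmod drop steeply from the myc-/- groups to all MYC-expressing groups of the same set, while Acan and Aspn show little spread within each set.

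Of the class I genes, biglycan had the largest difference of the 8 in both sets. Bgn lay at 15.83, 15.81 and 15.75 (log2) in myc-/- siCtrl libraries and at 12.87, 12.75 and 12.69 in myc-/- + MYC libraries. It fell by 3.03 on the log2 scale (SE 0.045, 95% interval -3.12 to -2.93), 8.14-fold, with an adjusted p of 5.6e-13. All 3 MYC-expressing libraries thus lay far below the 3 without MYC, and the spread within each group was narrow (SD 0.041 and 0.095, n = 3).

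Bgn in the larger set lay at 16.42, 16.29 and 16.39 in myc-/- libraries and at 11.12, 11.00 and 11.11 in myc-/- + MYC siCtrl libraries. It fell by 5.29 (SE 0.050, 95% interval -5.41 to -5.17), 39.1-fold (adjusted p = 6.82e-08), and ranked 9 from the lowest log2FC among 13188 genes. The groups again did not overlap.

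Decorin, the other class I member with chondroitin or dermatan sulfate, differed less. Dcn lay at 11.77, 11.64 and 11.40 in myc-/- siCtrl libraries and at 11.19, 11.41 and 11.23 in myc-/- + MYC libraries. The ranges overlapped, since the lowest myc-/- siCtrl library lay just under the highest MYC-expressing library, and the log2FC of -0.33 (SE 0.086, adjusted p = 0.0049) missed the fold cutoff. Dcn in the larger set lay at 7.62, 7.78 and 7.59 in myc-/- libraries and at 6.66, 6.88 and 6.76 in myc-/- + MYC siCtrl libraries. There the groups did not overlap and Dcn fell by 0.90 (SE 0.081, 95% interval -1.10 to -0.70), 1.87-fold (adjusted p = 1.58e-04).

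Asporin, which competes with decorin for collagen, varied little within each set. Aspn lay at 3.51 in all 3 myc-/- siCtrl libraries and at 3.87, 3.79 and 3.66 in myc-/- + MYC libraries. The MYC-expressing libraries all lay higher, with a log2FC of 0.26 (SE 0.045, adjusted p = 3e-04) that missed the fold cutoff. All 3 myc-/- siCtrl libraries lay within 0.05 of the lowest Aspn value of that set, so this difference holds only for the deposited values. In the larger set, 10 of 12 libraries lay within 0.05 of the lowest Aspn value of 2.18, and the log2FC was 0.05 (adjusted p = 0.34).

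Among the class II genes, fibromodulin had the largest difference in both sets. Fmod lay at 11.01, 11.13 and 10.96 in myc-/- siCtrl libraries and at 9.20, 9.24 and 9.36 in myc-/- + MYC libraries. It fell by 1.77 (SE 0.062, 95% interval -1.90 to -1.63), 3.40-fold (adjusted p = 4.06e-10), with no overlap. Fmod in the larger set lay at 13.13, 13.07 and 13.08 in myc-/- libraries and at 8.23, 8.31 and 8.26 in myc-/- + MYC siCtrl libraries. It fell by 4.83 (SE 0.042, 95% interval -4.94 to -4.73), 28.5-fold (adjusted p = 6.82e-08), and ranked 22 from the lowest among all genes.

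Prelp, whose product anchors basement membranes to connective tissue, was lower in both sets. It lay at 9.81, 9.63 and 9.67 in myc-/- siCtrl libraries and at 8.89, 8.62 and 8.89 in myc-/- + MYC libraries and fell by 0.90 (SE 0.083, 95% interval -1.08 to -0.72, adjusted p = 1.35e-06). It lay at 8.92, 8.83 and 8.91 in myc-/- libraries and at 7.21, 7.09 and 7.07 in myc-/- + MYC siCtrl libraries and fell by 1.76 (SE 0.061, 95% interval -1.91 to -1.61), 3.39-fold (adjusted p = 3.28e-06). The groups did not overlap in either set.

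Lumican, which regulates collagen fibril assembly in cornea and skin, fell in both sets. Lum lay at 9.38, 9.20 and 9.01 in myc-/- siCtrl libraries and at 8.02, 8.13 and 7.96 in myc-/- + MYC libraries and fell by 1.16 (SE 0.091, 95% interval -1.37 to -0.96), 2.24-fold (adjusted p = 3.45e-07). It lay at 6.76, 6.71 and 6.88 in myc-/- libraries and at 5.90, 5.80 and 5.81 in myc-/- + MYC siCtrl libraries and fell by 0.95 (SE 0.058, 95% interval -1.09 to -0.80), 1.93-fold (adjusted p = 3.1e-05). Every MYC-expressing library lay below every myc-/- library of its set. In the larger set 6 of 12 libraries, all MYC-expressing, lay within 0.05 of the lowest Lum value, so this fold holds only for the deposited values.

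Of the large proteoglycans, versican was lower with MYC and aggrecan varied little within each set. Vcan lay at 15.61, 15.54 and 15.57 in myc-/- siCtrl libraries and at 14.73, 14.84 and 14.88 in myc-/- + MYC libraries. It fell by 0.76 (SE 0.038, 95% interval -0.84 to -0.67), 1.69-fold (adjusted p = 8.27e-09), and after quantile normalization the log2FC was -0.53, short of the fold cutoff. Vcan in the larger set lay at 16.00, 15.45 and 15.94 in myc-/- libraries and at 14.71, 14.61 and 14.62 in myc-/- + MYC siCtrl libraries. The second myc-/- library lay lower than the other two but above all MYC-expressing libraries, and Vcan fell by 1.15 with a wider error (SE 0.149, 95% interval -1.51 to -0.78, adjusted p = 8.06e-04).

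Aggrecan, the main proteoglycan of cartilage, lay at 0.63 to 0.68 in the smaller set and at 2.16 to 2.23 in the larger set. All 6 libraries of the first set and 11 of 12 of the second lay within 0.05 of its own lowest value in that set. The log2FC with MYC was -0.02 (adjusted p = 0.0937) and 0.03 (adjusted p = 0.102), so no difference of Acan was detectable in the values as deposited. After median centring the limma log2FC was -0.07 (adjusted p = 7.09e-04) and 0.07 (adjusted p = 0.00637), opposite in sign and far short of the fold cutoff. Centring shifts the log2FC of all genes in a comparison by the same amount, downward in the smaller set and upward in the larger set. In the smaller set it moved the median of all genes from -0.0038 to -0.0464. The centred Acan values contain that shift and are no result particular to Acan.

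**Figure D2:**
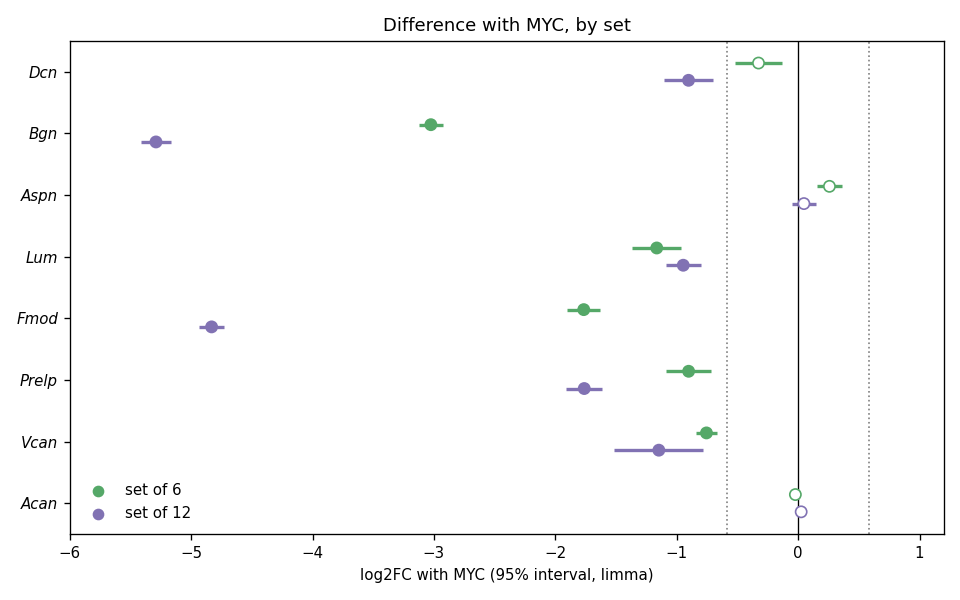
Log2FC with MYC for each proteoglycan gene in the set of 6 (green, myc-/- + MYC against myc-/- siCtrl) and the set of 12 (purple, myc-/- + MYC siCtrl against myc-/-), with 95% intervals from limma; filled points pass both cutoffs and dotted lines mark the fold cutoff. Bgn (-3.03 and -5.29) and Fmod (-1.77 and -4.83) lie farthest to the left in both sets, and Acan lies at about 0.

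The size of the MYC difference was then compared between the sets in a fit of 12 libraries (larger set minus smaller set). It differed past the cutoffs for 3 of the 8 genes, against 16.5% of all genes. The difference was -3.07 for Fmod (SE 0.084, adjusted p = 6.38e-13), -2.26 for Bgn (SE 0.073, adjusted p = 3.43e-12) and -0.86 for Prelp (SE 0.114, adjusted p = 1.53e-05), each a larger fall in the larger set. After quantile normalization the Prelp difference was -0.51, short of the cutoff. For Dcn it was -0.58 (SE 0.135, adjusted p = 0.00215), just short of the fold cutoff, and it passed in 7 of 12 fits that left out a library. For Vcan it was -0.39 (adjusted p = 0.0308), for Aspn -0.21 (adjusted p = 0.0113), for Lum 0.22 (adjusted p = 0.145) and for Acan 0.05 (adjusted p = 0.0511). Leaving out a library gave 0.12 to 0.31 for Lum. By the labels, which cells were transfected and the scale of the values both differ between the sets, and their parts in these differences cannot be told apart. Other differences between the sets, such as in culture or handling, are not given by the labels and cannot be told apart from these.

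The next comparison asked whether lowering AHR in MYC-expressing cells changed the same genes. Neither siRNA moved any of the 8 genes past the cutoffs, which 0.47% of all genes passed with siAHR-2 and 2.32% with siAHR-5. With siAHR-2, limma gave 0 of the 8 genes an unadjusted p under 0.05, against 40.4% of all genes, and 0 reached an adjusted p of 0.05, which 29.3% of all genes reached. With siAHR-5, 3 of the 8 had an unadjusted p under 0.05, against 47.8% of all genes, and 2, Bgn and Vcan, reached an adjusted p of 0.05, which 39.2% of all genes reached. The median log2FC of the 8 members was 0.024 with siAHR-2 and 0.13 with siAHR-5, against 2.2e-06 and 0.013 for all genes. The 2 siRNA comparisons share the 3 siCtrl libraries.

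Bgn lay at 11.12, 11.00 and 11.11 with siCtrl, at 11.07, 11.08 and 11.10 with siAHR-2 and at 11.43, 11.43 and 11.40 with siAHR-5. All siAHR-5 libraries lay above the others, with a log2FC of 0.34 against siCtrl (SE 0.040, 95% interval 0.24 to 0.44, adjusted p = 0.00197), while siAHR-2 gave 0.01 (95% interval -0.09 to 0.10, adjusted p = 0.96). The myc-/- libraries of that set lay at 16.29 to 16.42. The siAHR-5 libraries therefore stayed far closer to the other MYC-expressing libraries than to the cells without MYC.

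Vcan lay at 14.71, 14.61 and 14.62 with siCtrl, at 14.67, 14.70 and 14.78 with siAHR-2 and at 14.96, 14.81 and 15.00 with siAHR-5. The siAHR-5 libraries lay above the others, with a log2FC of 0.27 (SE 0.058, 95% interval 0.13 to 0.42, adjusted p = 0.0145), and siAHR-2 gave 0.07 (95% interval -0.03 to 0.18, adjusted p = 0.277). Fmod lay at 8.23 to 8.31 with siCtrl, 8.28 to 8.30 with siAHR-2 and 8.36 to 8.48 with siAHR-5, and its log2FC with siAHR-5 was 0.15 (adjusted p = 0.0565), which was -0.0024 after quantile normalization.

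The other members did not reach an adjusted p of 0.05 with either siRNA. Their log2FC with siAHR-2 and siAHR-5 was 0.16 and 0.11 for Dcn (adjusted p = 0.131 and 0.304) and 0.09 and 0.20 for Prelp (adjusted p = 0.337 and 0.127). Leaving out a library gave 0.10 to 0.21 and 0.06 to 0.17 for Dcn, and 0.05 to 0.14 and 0.12 to 0.25 for Prelp. Lum gave 0.02 and 0.00098, with library values of 5.80 to 5.92 in all 9 MYC-expressing libraries of the set. Aspn and Acan remained at 2.16 to 2.33 in those libraries.

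The 2 siRNAs were also set against each other, without the control libraries. In this comparison 0 of 8 members passed the cutoffs, against 2.18% of all genes, 3 had an unadjusted p under 0.05, against 46.8%, and 2 reached an adjusted p of 0.05, against 39.1% of all genes. Bgn was 0.34 higher with siAHR-5 than with siAHR-2 (SE 0.024, 95% interval 0.28 to 0.40, adjusted p = 3.77e-04) and Vcan 0.20 higher (95% interval 0.06 to 0.35, adjusted p = 0.0373). Fmod was 0.12 higher (95% interval 0.01 to 0.23, adjusted p = 0.0805). The Ahr values of the siAHR-5 libraries lay below those of the siAHR-2 libraries, with a log2FC of -0.11 (95% interval -0.25 to 0.04, adjusted p = 0.211).

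**Figure D3:**
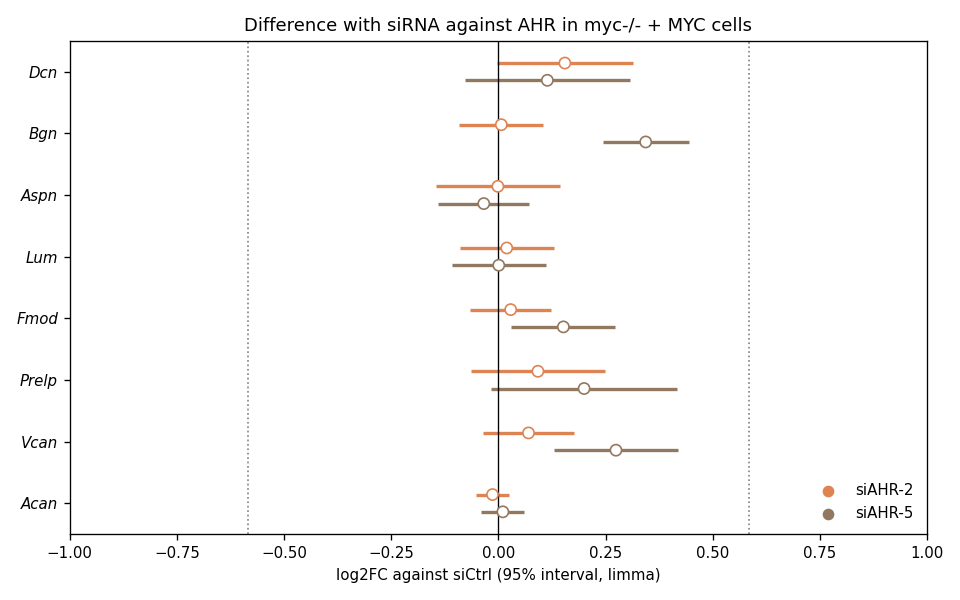
Log2FC of each proteoglycan gene with siAHR-2 (orange) or siAHR-5 (brown) against the shared siCtrl libraries in myc-/- + MYC cells, with 95% intervals from limma; dotted lines mark the fold cutoff. All points are open because no gene passed both cutoffs, and Bgn (0.34) and Vcan (0.27) with siAHR-5 lie farthest from 0.

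The genes that build, bind, modify and cleave proteoglycans were counted from 8 lists of 124 genes, of which 94 were in the table. With MYC 30 of the 94 fell and 9 rose in the smaller set, and 30 fell and 6 rose in the larger set. After quantile normalization these counts were 24 and 9, and 29 and 9. Of all genes 14.3% fell and 12.5% rose in the smaller set, and 14.7% fell and 10.8% rose in the larger set. The counts of each list below stand against these shares. The median log2FC over the 94 genes was -0.14 and -0.07.

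Of the other small leucine-rich proteoglycans, 4 of 11 were in the table. Tsku (tsukushi), which binds BMP and other growth factors, fell by 1.65 (SE 0.029, adjusted p = 1.92e-12) in the smaller set and by 1.09 (SE 0.030, adjusted p = 1.47e-06) in the larger set. The other 3 did not pass in either set.

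Among 12 measured hyaluronan-binding proteins, link proteins and hyaluronan enzymes, 4 fell and 1 rose in the smaller set, and 1 fell and 0 rose in the larger set, where 14.7% of all genes fell and 10.8% rose. Hapln4, a link protein, fell in both (log2FC -3.32 and -4.51, adjusted p = 4.98e-13 and 2.49e-07). Hapln3 and Hyal1, a hyaluronidase, fell in the smaller set (log2FC -2.44 and -1.08), whereas their values in the larger set were 0.02 and 0.24. Hapln1, the link protein that ties versican and aggrecan to hyaluronan, rose by 1.75 in the smaller set (adjusted p = 1.3e-09) while its log2FC of 0.57 in the larger set missed the fold cutoff and passed it after quantile normalization (0.74) or median centring (0.61). Hapln1 and Vcan, which lie side by side in the genome, thus had opposite signs in both sets.

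Among 18 measured cell-surface and other proteoglycans, 5 fell and 3 rose in the smaller set, and 4 fell and 1 rose in the larger set, where 3 rose after quantile normalization. Glypican-1 (Gpc1), a heparan sulfate proteoglycan anchored in the membrane by lipid, fell (log2FC -1.75 and -2.43, adjusted p = 4.36e-12 and 1.74e-07). Tgfbr3 (betaglycan), a TGF-β co-receptor, fell (log2FC -1.42 and -1.45, adjusted p = 3.04e-11 and 2.99e-04), and syndecan-1 (Sdc1) fell (log2FC -1.35 and -1.16). Spock1 (testican-1) fell by 2.12 in the smaller set, and its value in the larger one was -0.08. Srgn (serglycin), the proteoglycan of secretory granules, rose in both, by 2.70 (SE 0.072, adjusted p = 4.63e-11) and 2.54 (SE 0.082, adjusted p = 2.59e-06). Sdc2 and Gpc2 rose in the smaller set (1.09 and 0.93), while their log2FC in the larger set was 0.26 and 0.54, the latter 0.73 and past the cutoffs after quantile normalization. Cspg4, named after its values were seen, had a log2FC of -0.02 in the smaller set and 0.52 in the larger one, where it passed after quantile normalization (0.65).

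**Figure D4:**
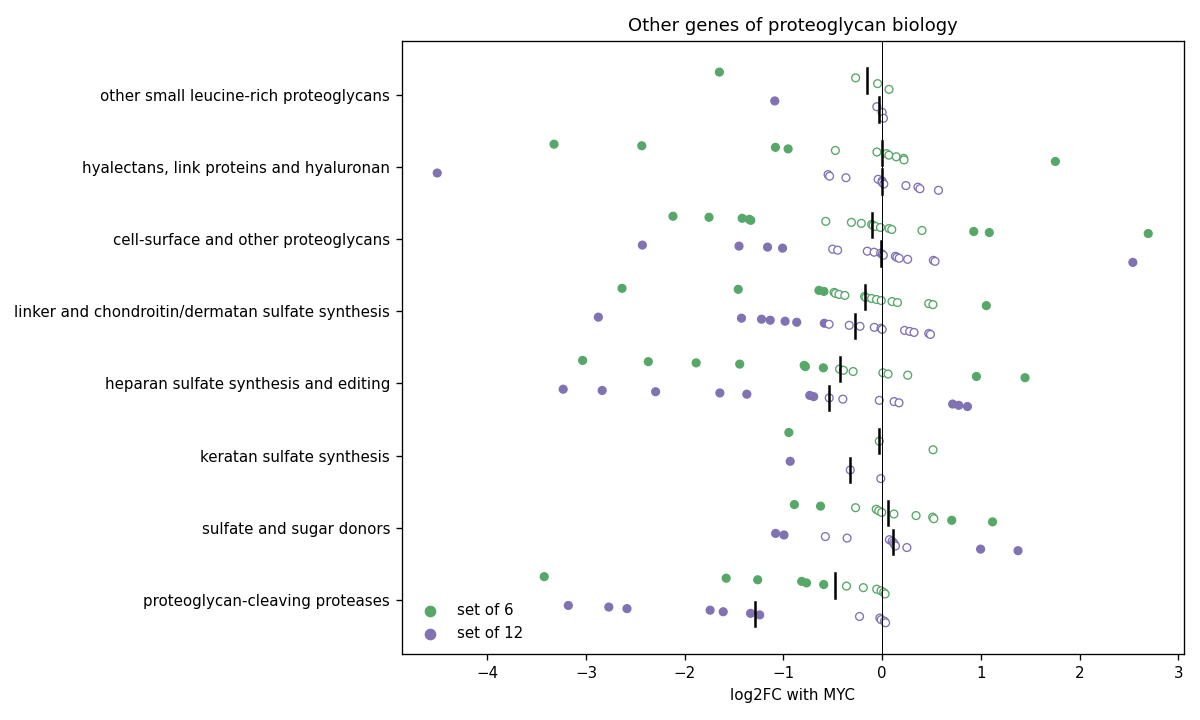
Log2FC with MYC for the 94 measured genes of 8 lists, with the set of 6 in green and the set of 12 in purple; filled points pass both cutoffs and black bars are medians over each list's measured genes. The proteases have the lowest list median in both sets (-0.48 and -1.29), and the isolated point at the right of the cell-surface list in each set is Srgn (2.70 and 2.54).

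The enzymes of chondroitin and dermatan sulfate synthesis, the chains of decorin, biglycan and versican, had 18 measured genes, of which 4 fell and 1 rose in the smaller set and 7 fell and 0 rose in the larger set. Of all genes 14.3% fell and 12.5% rose in the smaller set, and 14.7% fell and 10.8% rose in the larger set. After quantile normalization 2 instead of 4 fell in the smaller set, where 1684 of 13188 genes fell under that scaling. In the larger set 6 instead of 7 fell after quantile normalization or median centring. Dsel, which is related to dermatan sulfate epimerase, fell (log2FC -2.64 and -2.88, adjusted p = 1.93e-11 and 1.1e-06). Chst15, a chondroitin sulfotransferase, fell (log2FC -1.46 and -1.43, adjusted p = 1.03e-10 and 2.42e-05). Chpf2, a chondroitin chain-polymerizing factor, fell (log2FC -0.64 and -1.22), and the first value was -0.53 after quantile normalization. Dse, which encodes a dermatan sulfate epimerase, rose by 1.06 in the smaller set (adjusted p = 1.67e-09) with a value of 0.28 in the larger one.

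Heparan sulfate synthesis and editing had 15 measured genes, of which 7 fell (5 after quantile normalization) and 2 rose in the smaller set and 7 fell and 3 rose in the larger set. Both sulfatases that remove sulfate from heparan chains fell, Sulf1 with a log2FC of -1.88 and -3.23 and Sulf2 with -2.37 and -2.295 (adjusted p at most 1.38e-06 in each). Hs3st6, a sulfotransferase, fell (log2FC -3.03 and -2.84). Ndst4, which replaces acetyl by sulfate groups on heparan chains, rose by 1.45 and 0.86, and Extl1, a glycosyltransferase of the exostosin family, rose by 0.95 and 0.71. Hs2st1, another heparan sulfotransferase, rose by 0.78 in the larger set while its log2FC in the smaller set was 0.06.

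Keratan sulfate synthesis had 3 measured genes, and B4galt1, a galactosyltransferase, fell in both sets (log2FC -0.95 and -0.93). The 12 measured genes of sugar and sulfate donor supply had 2 lower and 2 higher in each set, shares close to those of all genes, with 1 lower in the smaller set after quantile normalization. Ugdh, which makes the UDP-glucuronic acid used by all chains with glucuronic acid, fell (log2FC -0.89 and -1.08, adjusted p = 1.11e-10 and 3.11e-06). Ugp2, which makes UDP-glucose, fell by 0.99 in the larger set with a value of -0.27 in the smaller one, while Uxs1, which makes the UDP-xylose that starts the chains, fell by 0.62 in the smaller set (-0.52 after quantile normalization) with a value of -0.58 in the larger one. Slc35d1, a transporter of nucleotide sugars into the endoplasmic reticulum, rose by 0.70 and 1.38. Slc35d2, another nucleotide sugar transporter, rose by 1.12 in the smaller set (0.25 in the larger), and Bpnt1, which degrades the by-product of sulfate transfer, rose by 1.00 in the larger set (0.52 in the smaller).

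Of 12 measured proteases that cleave proteoglycans, 6 fell (5 after quantile normalization) and 0 rose in the smaller set, and 7 fell and 0 rose in the larger set. Mmp3 (stromelysin-1), which degrades proteoglycan core proteins, fell (log2FC -3.42 and -2.77, adjusted p = 3.75e-13 and 1.84e-06). Htra1, a secreted serine protease, fell (log2FC -1.58 and -2.59), and Adamts1, which cleaves versican and aggrecan, fell (log2FC -1.26 and -1.74). Tll1, a relative of the protease that processes the biglycan propeptide, fell by 3.18 in the larger set with a value of -0.19 in the smaller one.

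With siAHR-2, 0 of the 94 genes passed, and with siAHR-5, 0 fell and 2 rose, a share close to the 2.32% of all genes that passed. Impad1, named after its values were seen, had a log2FC of -0.70 with siAHR-5 (adjusted p = 0.0143) and counted as lower after quantile normalization (-0.85) or median centring (-0.76). Srgn rose by 0.61 with siAHR-5 (adjusted p = 4.93e-04), and by 0.55 after median centring, which is short of the cutoff. Mmp13 (collagenase-3) rose by 0.75 (adjusted p = 0.00545). Its log2FC with MYC was -0.77 in the smaller set and -0.01 in the larger set. Srgn thus lay higher in MYC-expressing cells and higher again with siAHR-5, and with siAHR-2 its log2FC was 0.38 (adjusted p = 0.0061). In siAHR-5 against siAHR-2 cells, 3 of the 94 genes were lower and 1 was higher, where 2.18% of all genes passed in either direction. The lower genes were Impad1 (log2FC -0.94), Slc35d1 (-0.79) and B4galt4 (-0.67), and the higher one was Tsku (0.69).

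The genes whose values followed Bgn most closely over the 12 libraries of the larger set, by Pearson correlation, were Col1a1 (r = 0.99959), C1s (r = 0.99937) and Sod3 (r = 0.99923). These points share their libraries and mostly reflect the 3 myc-/- libraries against the other 9, and 513 genes had an r above 0.99. Col1a1, the chain of type I collagen on which several of these proteoglycans bind, had a log2FC of -5.95 in the larger set and -1.73 in the smaller set. C1s, a complement protease, had -4.28 and -2.63, and Sod3, an extracellular superoxide dismutase that binds heparin, had -3.32 and -1.82.

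Several members lie next to each other in the order of protein-coding genes in RefSeq (GRCr8). Dcn lies next to Lum, and both fell in the larger set, while Btg1 on the other side of Dcn rose there (log2FC 0.66, adjusted p = 4.08e-05). Prelp lies next to Fmod, and both fell in both sets, while Optc, on the other side of Prelp, had a log2FC of -0.05 in each set. Btg2, on the other side of Fmod, fell in the smaller set (log2FC -1.02) with a value of -0.11 in the larger one. Haus7, next to Bgn, had log2FC of -0.42 and -0.59, the second just past the fold cutoff as deposited (adjusted p = 1.44e-04). Median centring moved the median log2FC of all genes in that set from -0.00014 to 0.0426, a shift larger than the margin of Haus7. Acan lies next to Hapln3, one of the link proteins described before.

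RefSeq sequence upstream of the start was at hand for 5 of the 8 members (Acan, Vcan, Lum, Fmod and Aspn), and it was searched on both strands for letters bound by MYC and AHR. The canonical MYC motif, the E-box CACGTG, was searched first. Its non-canonical variants CACGCG, then CAAGTG, were searched as well. CACCTG is another non-canonical E-box that the study counts for MYC, and the core of the AHR response element was GCGTG. The last is contained in the reverse complement of CACGCG. Over the 250 bases before each of 33469 starts, 5.59% held CACGTG, 7.14% held CACGCG, 11.7% held CAAGTG, 15.9% held CACCTG and 25.9% held GCGTG. The windows of the 3 members of these 5 that fell in both sets are shown because they moved together, with matches in capitals. They lie at chr13:48045317-48045566 (plus strand) for Fmod, chr7:34245456-34245705 (plus strand) for Lum and chr2:22595956-22596205 (minus strand) for the more upstream of 2 Vcan starts, all in GRCr8.
Fmod: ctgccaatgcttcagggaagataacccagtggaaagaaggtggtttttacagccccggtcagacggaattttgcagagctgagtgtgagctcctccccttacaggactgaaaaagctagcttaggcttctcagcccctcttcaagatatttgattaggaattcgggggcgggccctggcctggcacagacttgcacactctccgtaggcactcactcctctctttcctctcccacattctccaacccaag
Lum: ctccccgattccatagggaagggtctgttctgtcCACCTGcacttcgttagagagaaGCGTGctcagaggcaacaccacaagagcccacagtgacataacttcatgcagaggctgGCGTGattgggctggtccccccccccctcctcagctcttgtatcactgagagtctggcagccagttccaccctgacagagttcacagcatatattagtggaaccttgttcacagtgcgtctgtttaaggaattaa
Vcan: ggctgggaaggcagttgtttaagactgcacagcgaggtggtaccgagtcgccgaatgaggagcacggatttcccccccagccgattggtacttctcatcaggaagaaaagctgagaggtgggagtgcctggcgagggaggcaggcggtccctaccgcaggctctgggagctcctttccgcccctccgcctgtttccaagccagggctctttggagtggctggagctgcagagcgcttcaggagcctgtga
Lum held CACCTG with its first base 216 bases before the start and GCGTG at 193 and 135 bases before it. The windows of Fmod, Vcan, Acan and Aspn held none of these letters. A match describes the letters only, and their absence applies to this window alone.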

How the data were processed

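RNA-seq was measured in 18 libraries (6 groups of 3). Groups and replicate numbers were taken from the sample labels. Per the paper's methods and the submitters' processing notes, the authors aligned reads to rn6 with HISAT2 2.1.0, kept genes of at least 10 reads in total and used DESeq2 to normalize them; the counter and annotation are not given in the sources used here, nor whether strand was kept. The authors deposited values on a log2 scale for 13188 genes. The table is called log CPM, but its values are not log CPM; the transformation is unknown, and how it treats low values was not tested. Depth, and the precision it gives, are unknown. Library medians were 11.00 to 11.05 in the smaller set of 6 libraries and 11.61 to 11.68 in the larger set of 12. Value columns without a sample numbered 0.

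Values as deposited were fitted with limma 3.58.1 in R 4.3.3 (mean-variance trend), with only the groups compared in each fit and Benjamini-Hochberg adjustment over all genes; the test of the difference used 12 libraries in 4 groups. Genes passed at a log2FC of at least 0.585 in size (1.5-fold) and an adjusted p of at most 0.01. The members, lists, tests and alternatives were chosen with earlier results of these data known. From each list the text names up to 3 genes per direction and set with the largest log2FC among those that passed. It also names those that passed with an siRNA or between the siRNAs, and the 3 genes most like Bgn. The genes next to the members are named for their position, and Ahr and cell type markers for the check of the labels. The alternatives were an adjusted p of 0.05, all libraries in one fit, no trend, quantile normalization, median centring, a pseudocount of 1, a filter on a mean of at least 1, blocking on the replicate number, and dropping each library in turn. Promoter sequences and gene order come from RefSeq (GRCr8), in which all 10 listed symbols were found; coordinates in rn6 were not used. Plots used matplotlib 3.10.9 (Python 3.11.15).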

Additional observations from a re-analysis of the deposited data

Results flagged for a closer look

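The MYC difference itself differed between the sets (larger set minus smaller set, limma, one fit of 12 libraries) for 3 of the proteoglycan genes. The difference of the log2FC was -2.264 for Bgn, -3.065 for Fmod and -0.8599 for Prelp, each a larger fall in the larger set. By the labels the MYC-expressing cells were transfected in that set and the myc-/- cells in the other, but an exchange of the labels of both myc-/- groups could not be checked here. The scale of the values and possibly other conditions also differ between the sets, and their parts cannot be told apart.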

How the results depend on the processing

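Every call of a MYC difference (5 genes in the smaller set and 6 in the larger set) kept its direction under all alternatives run, and 69 of 70 and 84 of 84 alternative values stayed past the cutoffs. The exception was Vcan in the smaller set (-0.53 after quantile normalization), and in the difference between the sets 59 of 60 stayed, the exception being Prelp (-0.51 after quantile normalization). With an adjusted p of 0.05 and no fold cutoff, 7 members counted as changed with MYC in the smaller set (Dcn added as lower and Aspn as higher), 6 in the larger set, 2 with siAHR-5, 2 between the siRNAs and 6 in the difference between the sets. Over all genes that rule called 10051 and 8538 genes for MYC in the sets of 6 and 12, 3860 for siAHR-2, 5169 for siAHR-5, 5151 between the siRNAs and 7235 for the difference, against 3537, 3361, 62, 306, 287 and 2171 with both cutoffs. Leaving out a library kept 5 and 6 members called with MYC and 0 with either siRNA or between them, and gave 3 to 4 for the difference between the sets. The filter on a mean of at least 1 removed Acan from the smaller set.

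Some log2FC that were not called changed sign with the scaling. After median centring, siAHR-2 gave -0.0241 for Bgn, -0.0022 for Fmod and -0.0114 for Lum, siAHR-5 gave -0.0587 for Lum and -0.0491 for Acan, and siAHR-5 against siAHR-2 gave -0.0046 for Acan. After quantile normalization, siAHR-2 gave -0.0340 for Bgn, -0.0282 for Fmod and -0.0029 for Lum, and siAHR-5 gave -0.0024 for Fmod (0.15 as deposited) and -0.0517 for Lum. Leaving out a library gave ranges across 0 for MYC in the larger set (Aspn -0.00017 to 0.0718), for siAHR-2 (Aspn -0.0479 to 0.0468, Bgn -0.0306 to 0.0265, Lum -0.0109 to 0.0514), for siAHR-5 (Acan -0.0053 to 0.0285, Aspn -0.0580 to 0.0140, Lum -0.0324 to 0.0328) and between the siRNAs (Aspn -0.0563 to 0.0139, Dcn -0.0744 to 0.0159, Lum -0.0520 to 0.0119). Median centring shifts the log2FC of all genes in a comparison by the same amount, which was downward in these siRNA comparisons. The cause of the other sign changes was not tested. Over all genes, 41 fell and 21 rose with siAHR-2 (53 and 15 after median centring), 112 fell and 194 rose with siAHR-5 (165 and 140 after centring, 126 and 127 after quantile normalization), and the difference between the sets was negative for 1275 and positive for 896 (1036 and 1148 after centring).

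Same-numbered libraries deviated together little on average (mean correlation -0.0287 to 0.0974 over the 5 comparisons). Single pairs ranged from -0.256 to 0.242, and 3 pairs per comparison are too few to exclude a pairing by number. With the replicate number as a block, 5, 6, 0, 0, 0 and 3 members passed, in the order of comparisons given before, and over all genes the count for siAHR-2 was 0 instead of 62. Since the depth is unknown, what it limits for Acan, Aspn and Lum, which had libraries close to the gene's own lowest value, cannot be given.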
